A study of Mus musculus with 2 samples.

Results

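The genes described here are 42 genes of protein folding and quality control in the endoplasmic reticulum (ER): its chaperones, disulfide and prolyl isomerases, stress sensors and the machinery of ER-associated degradation (ERAD). They were taken by gene symbol from a list, and all 42 were found among the 22756 gene rows of the deposited tables. The tables give ribosome footprints, pieces of mRNA left after nuclease digestion because a ribosome sat on them. They came from the ileum of C57BL/6 mice, wild type and at postnatal day 21. One condition was a 48 h fast and the other was feeding, and no allele or agent other than the fast is named. Each condition is represented by 1 library, so every difference below is between 2 libraries, has no replicate check and carries no p-value. The sources used here do not give the number of animals behind a library or any pooling. A footprint count combines how much mRNA was present with how heavily it was translated, and no matched mRNA library was analysed here to separate them.

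Proteins that enter the secretory pathway fold in the ER with the help of BiP (Hspa5) and other chaperones, acquire disulfide bonds through isomerases of the PDI family, and are tested by a lectin cycle that recognises their sugars. Clients that fail to fold are pulled back to the cytosol and degraded, which is ERAD. When unfolded clients accumulate, the sensors IRE1, PERK and ATF6 start the unfolded protein response (UPR), which slows translation and induces genes for chaperones and ERAD. In the intestine, secretory cells such as goblet, Paneth and plasma cells are known for a large ER, and absorptive enterocytes use it to build lipoproteins.

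Gene-assigned footprints numbered 5434252 in the fasted and 5558620 in the fed library. Library sizes were scaled with TMM, a trimmed mean of gene ratios. Ratios are fasted over fed, and brackets after a log2 ratio hold its exact 95% Clopper-Pearson interval, which covers counting error only. A gene was measured if the libraries together gave it 30 footprints or more. It was called higher or lower in the fasted library if its ratio reached 1.5-fold in that direction and 1 lay outside the interval, and neither otherwise. Of 11333 measured genes, 17.3% were lower and 17.2% higher by that rule, and their median log2 ratio was 0.0024. Plain CPM (scaled by the total of gene-assigned footprints, with no TMM factor) moves every log2 ratio down and puts the median of all measured genes at -0.32. The tissue label was checked against markers of ileal enterocytes: Fabp6, the ileal bile acid binding protein, had 16615 footprints in the fasted and 28873 in the fed library, and Slc10a2, the ileal bile acid transporter, had 2390 in the fasted and 2458 in the fed library. Fgf15, a hormone of ileal enterocytes, had 1739 in the fasted and 810 in the fed library; it was higher (log2 ratio 1.46), while Fabp6 (-0.44) and Slc10a2 (0.31) were neither.

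Most genes for protein folding were lower in the fasted library, none of the ERAD genes was, and Herpud1 had by far the highest ratio. All 42 members were measured. Of these, 19 were lower in the fasted library (against 17.3% of all measured genes), 2 were higher (against 17.2%) and 21 were neither. The members' median log2 ratio was -0.48. Among the 26 chaperones, isomerases and lectin-cycle genes, which are called folding members here, 17 were lower and 0 higher. Their ratios were all below 1 and their median log2 ratio was -0.82. Among the 6 genes for the sensors and Xbp1, 2 were lower and 0 higher at a median of -0.23, and among the 10 ERAD members 0 were lower and 2 higher at a median of 0.023. With plain CPM the folding members had 23 lower and the ERAD members 0 lower, and over all members 26 were lower (31.2% of all measured genes) and 1 higher (8.86%). The ERAD member Derl2 then fell just short of the threshold (-0.58, -0.87 to -0.31). At 2-fold or more with TMM, 9 members were lower (9.14% of all measured genes) and 1 higher (8.25%). In whole tissue, fewer cells of a type and fewer footprints per cell cannot be told apart.

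**Figure D1:**
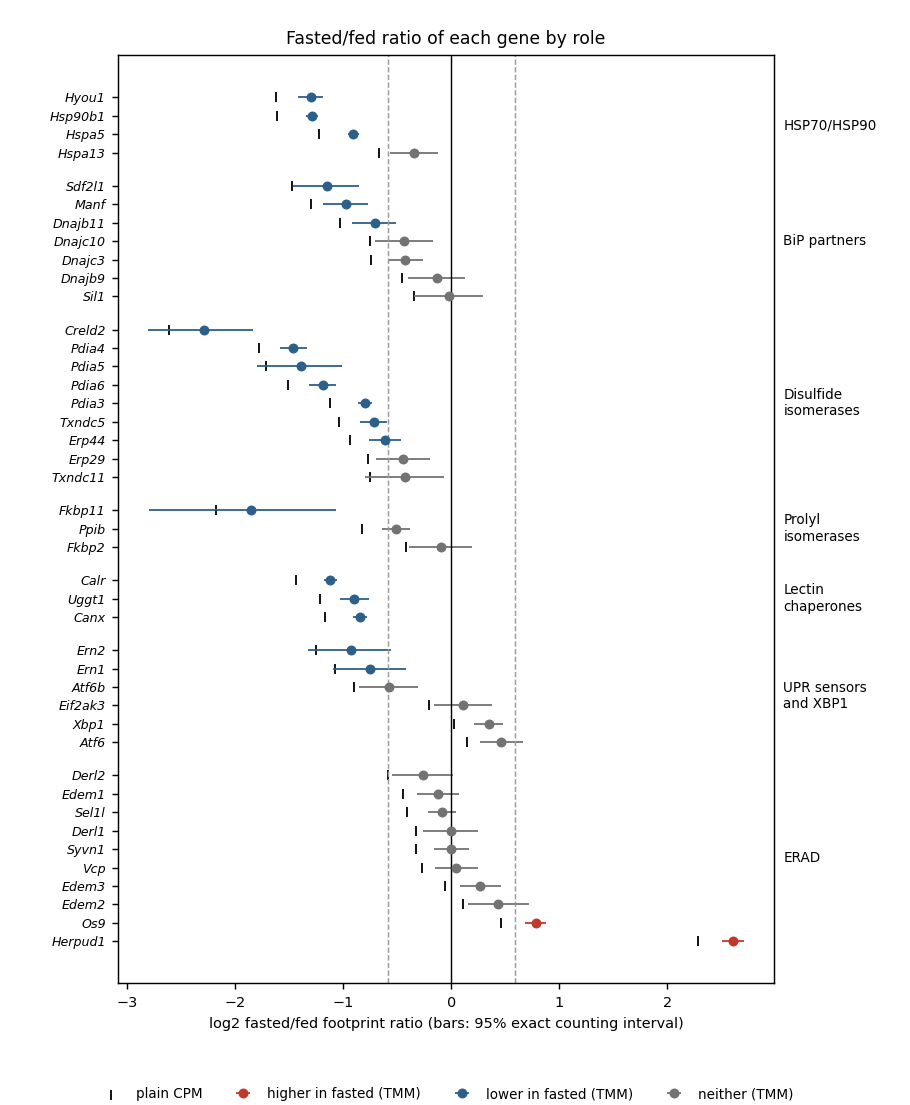
Log2 fasted/fed footprint ratio of each of the 42 genes on the x axis, grouped by role down the page, with 1 library per condition. Circles are TMM-scaled ratios with 95% exact counting intervals, coloured by whether the gene was at least 1.5-fold higher or lower in the fasted library (dashed lines) with an interval excluding 1, and ticks are plain CPM ratios; the folding genes sit left of 0, most ERAD genes lie near 0, and Herpud1 lies at 2.60.

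Summed over the 42 genes, the fasted library held 35789 footprints and the fed library 68792. That was 0.659% of gene counts in the fasted library (interval 0.652% to 0.665%) and 1.24% in the fed library (1.23% to 1.25%). The folding members alone took 0.440% of gene counts in the fasted and 1.08% in the fed library, a 1.96-fold lower TMM-scaled sum in the fasted library (log2 ratio -0.97, -0.99 to -0.95). The ERAD members took 0.182% of gene counts in the fasted and 0.118% in the fed library, a log2 ratio of 0.96 (0.91 to 1.002). Without Herpud1 the sum of the other 9 ERAD members had a log2 ratio of 0.27 (0.21 to 0.32), and with plain CPM that value was -0.056. Os9 alone gave 2044 of the 5214 fasted and 1522 of the 5545 fed footprints in that sum. The median log2 ratio of the 9 was -0.0012.

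Many UPR target genes carry the ER stress response element (ERSE), in which NF-Y binds a CCAAT box and ATF6 or XBP1 a CCACG box. The motif searched was CCAAT, 9 bases of any kind, then CCACG, on both strands of RefSeq promoter windows (build GRCm38.p6, the assembly of mm10) that run from 250 bases before an annotated start to 50 after it. A window was held for 34 of the 42 members. Its start is that of RefSeq, which for some members, Hspa5, Hsp90b1, Pdia6 and Calr among them, lies inside the gene bounds that GENCODE gives. The ERSE letters were found in 8 of the 34 (23.5%), against 37 of 27025 genes with a window (0.137%). The element is known from UPR target genes, and the members were listed for roles in the ER and its stress response. This contrast was therefore partly set by the choice of genes and is no finding of these libraries. No footprint count enters it, or the shares of the other motifs given below. Of the 8 members with the motif, 6 were lower in the fasted library, 0 were higher, and Dnajc3 and Syvn1 were neither; their median log2 ratio was -1.01. Of the 26 members with a window and no match, 10 were lower, 2 higher and 14 neither, at a median of -0.43. The groups with and without a match also differed in role. The motif was found in 1 of 9 ERAD members and 0 of 4 sensor or Xbp1 genes with a window. The part of role in the difference was not tested. Outside the members, 6 further measured genes had the motif, of which 2 were lower, 0 higher and 4 neither, at a median of -0.32. A match describes these letters only, and no match says only that they are not in the window.

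The stretches that hold a match are shown because 6 of the 16 lower members with a window hold this element, as do 2 members that were neither, and because the Herpud1 window holds a different one. The other 10 lower members with a window, Pdia3 and Pdia4 among them, had no match. Each is written 5′ to 3′ on the gene's strand in lower case, with the fixed letters of the match in capitals. On the opposite strand the motif reads CGTGG, 9 bases, ATTGG.
Hspa5, chr2:34772000-34772068, plus strand: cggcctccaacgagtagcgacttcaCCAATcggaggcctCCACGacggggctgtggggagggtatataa
Hsp90b1, chr10:86705508-86705681, minus strand: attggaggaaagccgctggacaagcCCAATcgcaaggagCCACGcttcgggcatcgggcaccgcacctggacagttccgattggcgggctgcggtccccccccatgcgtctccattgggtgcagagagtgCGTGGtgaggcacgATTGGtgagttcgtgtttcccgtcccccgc
Calr, chr8:84847050-84847118, minus strand: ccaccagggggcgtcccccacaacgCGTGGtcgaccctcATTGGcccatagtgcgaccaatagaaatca
Canx, chr11:50325775-50325843, minus strand: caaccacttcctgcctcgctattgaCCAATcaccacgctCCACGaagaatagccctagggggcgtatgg
Pdia6, chr12:17266466-17266534, plus strand: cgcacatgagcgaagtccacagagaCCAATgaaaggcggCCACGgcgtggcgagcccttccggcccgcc
Creld2, chr15:88819495-88819563, plus strand: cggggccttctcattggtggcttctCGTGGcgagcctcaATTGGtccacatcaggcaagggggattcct
Dnajc3, chr14:118937802-118937870, plus strand: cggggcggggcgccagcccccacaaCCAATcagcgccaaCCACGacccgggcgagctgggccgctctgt
Syvn1, chr19:6046507-6046575, plus strand: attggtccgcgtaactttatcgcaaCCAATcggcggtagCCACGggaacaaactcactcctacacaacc
Herpud1, chr8:94386352-94386412, plus strand: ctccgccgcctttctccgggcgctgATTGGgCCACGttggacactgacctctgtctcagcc

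In Herpud1 the capitals mark ERSE-II, a compact variant searched as ATTGG, 1 base of any kind, then CCACG, on both strands, which 12 of 27025 genes held (0.0444%). It was held by 2 of the 34 members, Herpud1 and Dnajb11, a BiP cochaperone whose match starts 8 bases after the annotated start. These 2 members went opposite ways: Herpud1 was higher and Dnajb11 lower in the fasted library. An XBP1 element, the UPRE TGACGTGG, was found in Vcp, Txndc5 and Txndc11 (8.82% of members, 0.714% of genes). The C/EBP-ATF element TGATGNAA, which ATF4 can bind, was found in Herpud1 and Txndc5 (5.88% of members, 4.51% of genes). None of the matches in member windows overlapped another.

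**Figure D2:**
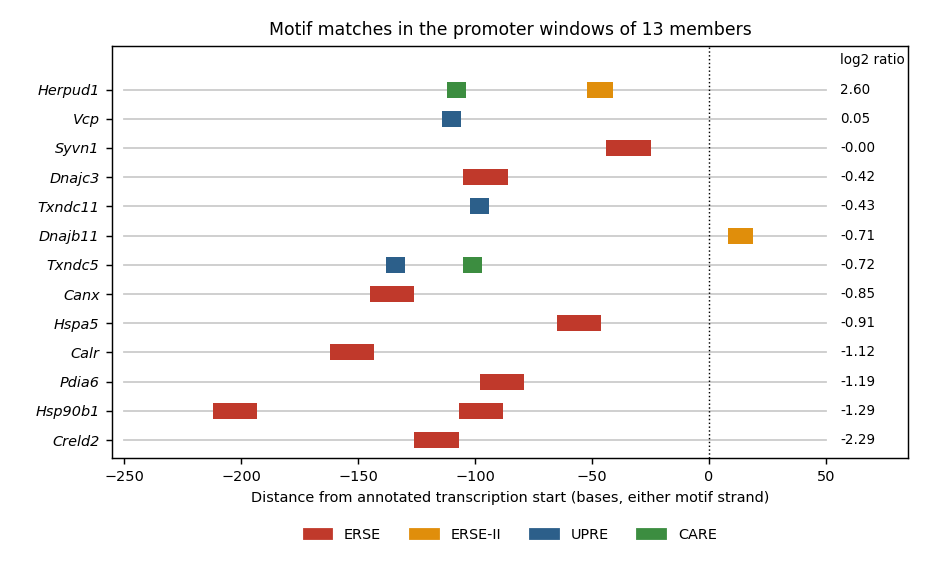
Position of each motif match in the promoter windows of the 13 members that hold at least 1 match; the x axis is the distance in bases from the RefSeq start (dotted line), the coloured bars are matches on either strand, and the number at right is the log2 fasted/fed ratio. The ERSE matches (red) lie upstream of the start, and the genes are ordered from Herpud1 at 2.60 to Creld2 at -2.29.

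The main chaperones were lower in the fasted library. Hspa5 (chromosome 2, 34771970 to 34777547) encodes BiP, the ER HSP70 that binds exposed hydrophobic stretches and keeps the UPR sensors silent. It had 4417 footprints in the fasted and 10588 in the fed library, and its level, the TMM-scaled CPM per kilobase of coding sequence, was 463 in the fasted and 867 in the fed library, 1.87-fold lower (log2 ratio -0.91, -0.96 to -0.86). Hsp90b1 (chromosome 10, 86690209 to 86705509) encodes GRP94, the ER HSP90, which matures a restricted set of clients that includes integrins and Toll-like receptors. It had 3507 footprints in the fasted and 10988 in the fed library, at levels of 299.9 fasted and 735 fed, and was 2.45-fold lower (log2 ratio -1.29, -1.35 to -1.24). Hyou1, a large HSP70 relative that exchanges the nucleotide of BiP, had 768 footprints in the fasted and 2421 in the fed library, at levels of 52.7 fasted and 129.96 fed, and its log2 ratio of -1.30 (-1.42 to -1.18) was close to that of Hsp90b1. Hspa13, a shorter HSP70 relative of the microsomal membrane, had 265 footprints in the fasted and 430 in the fed library and was neither (-0.34, -0.57 to -0.12). The proportions of the chaperones differed too: there were 1.26 Hspa5 footprints per Hsp90b1 footprint in the fasted library (interval 1.205 to 1.317) and 0.964 in the fed library (0.938 to 0.990), a comparison into which no scaling enters.

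The partners of BiP were split. Sdf2l1, which forms a complex with the cochaperone ERdj3, had 122 footprints in the fasted and 347 in the fed library, at levels of 37.9 fasted and 84.2 fed, and was 2.22-fold lower (log2 ratio -1.15, -1.46 to -0.85). Manf, a secreted ER-stress protein that binds BiP, had 274 footprints in the fasted and 690 in the fed library, at levels of 105 fasted and 207 fed, and was 1.97-fold lower (-0.98, -1.18 to -0.77). Dnajb11, ERdj3 itself, had 295 footprints in the fasted and 618 in the fed library, at levels of 56.5 fasted and 92.6 fed (-0.71, -0.92 to -0.51). These 3 were lower, and the remaining 4 were neither. Dnajc3, an HSP40 known as an inhibitor of the PERK kinase, had 484 footprints in the fasted and 831 in the fed library, at levels of 65.9 fasted and 88.4 fed (-0.42, -0.59 to -0.26), and Dnajc10, an HSP40 with thioredoxin domains that reduces disulfides before ERAD, had 189 in the fasted and 327 in the fed library (-0.43, -0.70 to -0.17). Dnajb9, the cochaperone ERdj4 that recruits BiP to IRE1 and serves ERAD, had 210 footprints in the fasted and 295 in the fed library, at levels of 64.9 fasted and 71.3 fed (-0.13, -0.40 to 0.12). Sil1, a nucleotide exchange factor of BiP, had 147 in the fasted and 191 in the fed library (-0.022, -0.34 to 0.30). For Dnajb9 and Sil1 the interval included a ratio of 1 with TMM. With plain CPM it did not, for Dnajb9 (-0.46, -0.72 to -0.20) or for Sil1 (-0.34, -0.67 to -0.027), and both stayed neither.

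Disulfide isomerases were the role with most lower genes, 7 of 9, and held the lowest ratio of all members. Creld2 (chromosome 15, 88819646 to 88826683), an ER-stress inducible protein with EGF-like repeats and isomerase activity, had 43 footprints in the fasted and 272 in the fed library, at levels of 8.43 fasted and 41.7 fed. It was 4.95-fold lower (log2 ratio -2.29, -2.81 to -1.84), rank 103 from the bottom among the 11333 measured genes. Pdia4 (ERp72) had 685 footprints in the fasted and 2412 in the fed library, at levels of 73.3 fasted and 202 fed, 2.75-fold lower (-1.46, -1.59 to -1.34). Pdia6 (P5), which also restrains active IRE1, had 667 in the fasted and 1947 in the fed library, at levels of 103 fasted and 235 fed, 2.28-fold lower (-1.19, -1.32 to -1.06). Pdia3 (ERp57), the isomerase that works with calnexin and calreticulin, had the highest level of the member isomerases, 397 in the fasted and 689 in the fed library. Its counts were 2923 in the fasted and 6491 in the fed library (-0.80, -0.86 to -0.73). The other lower genes were Pdia5, a further PDI relative, Txndc5 and Erp44, which retrieves unassembled clients from the early secretory pathway. Pdia5 had 73 footprints in the fasted and 246 in the fed library, at levels of 9.69 fasted and 25.5 fed (-1.39, -1.79 to -1.02), Txndc5 had 743 in the fasted and 1565 in the fed library, at levels of 122 fasted and 201 fed (-0.72, -0.85 to -0.59), and Erp44 had 551 in the fasted and 1078 in the fed library, at levels of 93.1 fasted and 142 fed (-0.61, -0.76 to -0.46). Erp29, a PDI relative without the redox-active cysteine pair, and Txndc11, a thioredoxin-like partner of the EDEM proteins, were neither, with log2 ratios of -0.45 for Erp29 (-0.70 to -0.20) and -0.43 for Txndc11 (-0.80 to -0.072).

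Of the prolyl isomerases, which turn peptide bonds at proline, only Fkbp11 was lower. Ppib, cyclophilin B, had 763 footprints in the fasted and 1388 in the fed library, at levels of 242 fasted and 345 fed, and stayed short of the threshold at a log2 ratio of -0.51 (-0.64 to -0.38). Fkbp2 had 171 footprints in the fasted and 234 in the fed library, with an interval that included 1 (-0.096, -0.39 to 0.19). With plain CPM its interval excluded 1 (-0.42, -0.71 to -0.13), and it stayed neither. Fkbp11, abundant in plasma cells and other secretory cells, had the fewest footprints of all members, 15 in the fasted and 71 in the fed library, at levels of 5.12 fasted and 18.9 fed, and was 3.70-fold lower within a wide interval (-1.85, -2.80 to -1.07).

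All 3 genes of the lectin cycle were lower in the fasted library. Calr (chromosome 8, 84841850 to 84846934), the soluble lectin and calcium-binding chaperone calreticulin, had 2909 footprints in the fasted and 8079 in the fed library. Its level per kilobase was 479.6 scaled CPM in the fasted and 1041 in the fed library, where it was the highest of the 42 genes, and its log2 ratio was -1.12 (-1.18 to -1.06). Canx, the membrane-bound relative calnexin, had 2761 footprints in the fasted and 6346 in the fed library, at levels of 320.4 fasted and 576 fed (-0.85, -0.91 to -0.78). Uggt1, the glucosyltransferase that returns unfolded glycoproteins to the lectins, had 622 in the fasted and 1481 in the fed library, at levels of 27.5 fasted and 51.2 fed (-0.90, -1.03 to -0.76).

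**Figure D3:**
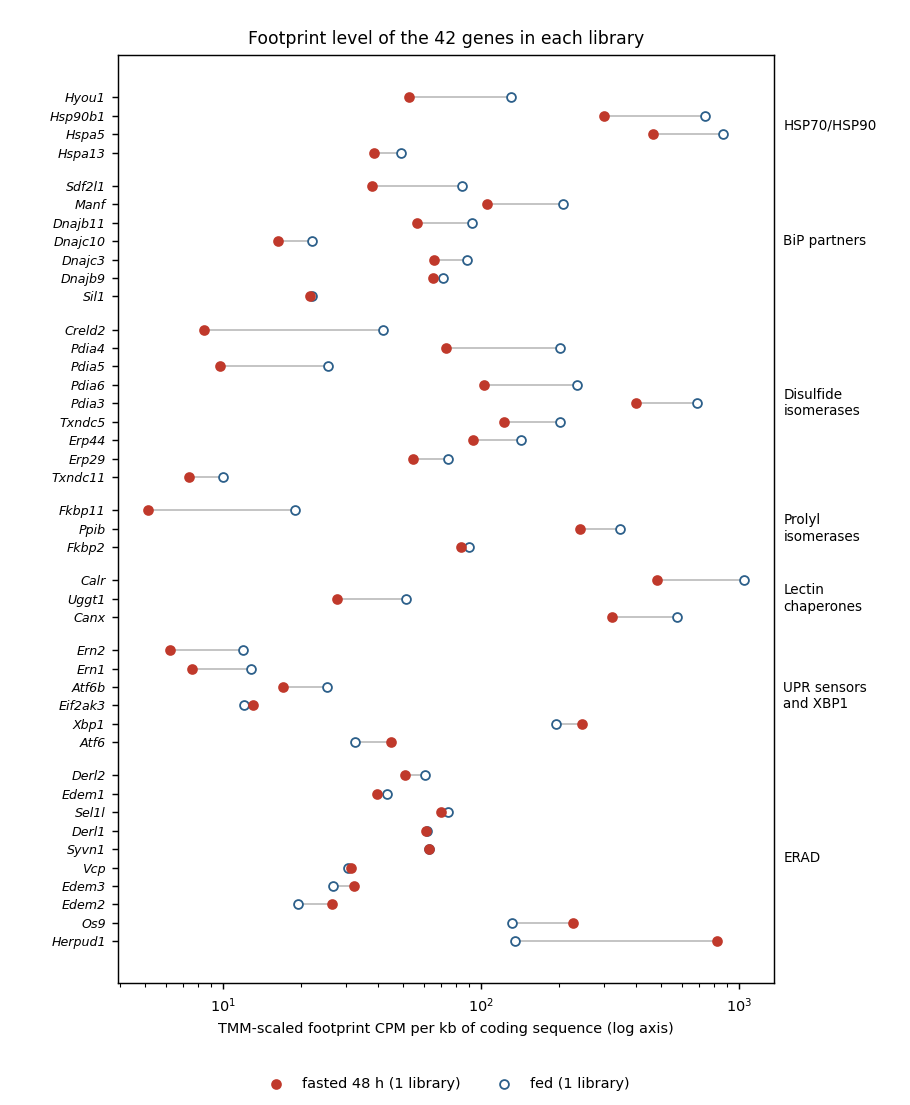
Footprint level of each of the 42 genes, in TMM-scaled CPM per kilobase of coding sequence on a log axis, with filled circles for the fasted and open circles for the fed library (1 library each) and roles down the page. The chaperones and isomerases lie to the left in the fasted library, most ERAD genes nearly overlap, and Herpud1 stands at 824 in the fasted and 135 in the fed library.

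The stress sensors did not move as a group. Ern1, which encodes IRE1 alpha, the kinase and RNase that splices Xbp1 mRNA, had 108 footprints in the fasted and 233 in the fed library, at levels of 7.58 fasted and 12.8 fed, and was 1.69-fold lower (log2 ratio -0.75, -1.10 to -0.42). Ern2, the IRE1 beta paralogue found in mucus-producing epithelium, had 83 footprints in the fasted and 203 in the fed library, at levels of 6.25 fasted and 11.9 fed, and was 1.91-fold lower (-0.93, -1.32 to -0.56). The number of Ern1 footprints per Ern2 footprint was 1.30 in the fasted (0.968 to 1.75) and 1.15 in the fed library (0.947 to 1.39), so their proportion did not differ beyond counting error. Eif2ak3, the PERK kinase that phosphorylates eIF2 alpha, had 212 footprints in the fasted and 251 in the fed library, at levels of 13.1 fasted and 12.1 fed (0.11, -0.16 to 0.38). Atf6, the membrane-bound transcription factor that is cleaved in the Golgi, had 427 footprints in the fasted and 396 in the fed library, at levels of 44.6 fasted and 32.4 fed (0.46, 0.26 to 0.66). Its relative Atf6b had 175 in the fasted and 334 in the fed library and narrowly missed the threshold at 1.49-fold lower (-0.58, -0.85 to -0.31). Atf6b was lower with plain CPM (-0.90), upper-quartile factors (-0.60) and TMM without the 20 most abundant genes (-0.64), which makes 3 of these 6 genes lower. Eif2ak3 and Atf6 were thus neither, and the sign of Eif2ak3 turned to -0.21 with plain CPM.

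Xbp1, the transcription factor that IRE1 activates and that induces chaperone and ERAD genes, had 961 footprints in the fasted and 968 in the fed library, at levels of 247 fasted and 194 fed. Its log2 ratio was 0.34 (0.21 to 0.47), which was neither, and 0.022 (-0.11 to 0.15) with plain CPM. The counts are per gene and do not separate the spliced from the unspliced form. There were 0.218 Xbp1 footprints per Hspa5 footprint in the fasted library (0.203 to 0.233) and 0.0914 in the fed library (0.0855 to 0.0977).

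Herpud1 was the exception among all members. It encodes HERP, a membrane protein with a ubiquitin-like domain that helps assemble the HRD1 complex and is itself induced by ER stress. Herpud1 (chromosome 8, 94386438 to 94395377) had 4695 footprints in the fasted and 987 in the fed library. Per kilobase of coding sequence it stood at 824 scaled CPM in the fasted library, the highest of the 42 genes there, and at 135 in the fed library, where it ranked 13. It was 6.08-fold higher in the fasted library (log2 ratio 2.60, 2.51 to 2.71; 2.28 with plain CPM), the ratio ranked 79 from the top among 11333 measured genes. Against Hspa5, with no scaling involved, there were 1.06 Herpud1 footprints per Hspa5 footprint in the fasted library (1.020 to 1.108) and 0.0932 in the fed library (0.0872 to 0.0995), an 11.4-fold difference.

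The partners of HERP in the HRD1 complex did not share that difference. Syvn1, the ubiquitin ligase HRD1, had 560 footprints in the fasted and 717 in the fed library, at levels of 62.8 fasted and 62.8 fed, a log2 ratio of -0.0012 (-0.16 to 0.16). Sel1l, its scaffold, had 807 in the fasted and 1095 in the fed library, at levels of 70.1 fasted and 74.3 fed (-0.085, -0.22 to 0.047). Both intervals lie within 1.5-fold of equality. With plain CPM they excluded a ratio of 1, for Syvn1 (-0.32, -0.49 to -0.16) and for Sel1l (-0.41, -0.54 to -0.28), and both genes stayed neither. Derl1 (-0.0068, -0.27 to 0.25) and Derl2 (-0.26, -0.54 to 0.017), rhomboid-like proteins of the channel through which clients leave, were also neither. With plain CPM their intervals excluded 1, for Derl1 (-0.33, -0.59 to -0.073) and for Derl2 (-0.58, -0.87 to -0.31). Derl2 then fell just short of 1.5-fold, and both stayed neither. Os9, a lectin that hands glycoproteins to SEL1L, was the other higher gene, with 2044 footprints in the fasted and 1522 in the fed library, at levels of 227 fasted and 132 fed, 1.72-fold higher (0.78, 0.68 to 0.88). With plain CPM Os9 was 0.46 and no longer reached 1.5-fold.

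The mannosidase-like EDEM proteins, which trim glycans and so mark clients for ERAD, were neither in all 3 cases. Edem1 had 376 footprints in the fasted and 523 in the fed library, at levels of 39.6 fasted and 43.0 fed (-0.12, -0.32 to 0.073). With plain CPM its interval excluded 1 (-0.44, -0.64 to -0.25), and it stayed neither. Edem2 had 222 in the fasted and 210 in the fed library (0.44, 0.16 to 0.71), and Edem3 had 436 in the fasted and 463 in the fed library (0.27, 0.076 to 0.46; -0.054 with plain CPM). Vcp, the p97 ATPase that extracts clients from the membrane, had 369 footprints in the fasted and 457 in the fed library, at levels of 31.4 fasted and 30.4 fed (0.047, -0.16 to 0.25; -0.28 with plain CPM), but 94.5% of its coding 28-mers also occur in other annotated genes, which leaves its level uncertain.

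The make-up of the pool of footprints on the 42 genes, a measure free of any scaling between libraries, also differed. The folding members made up 66.8% of the pool in the fasted library (66.3% to 67.3%) and 87.0% in the fed library (86.8% to 87.3%). Herpud1 alone made up 13.1% of the pool in the fasted library (12.8% to 13.5%) and 1.43% in the fed library (1.35% to 1.53%). The other 9 ERAD members made up 14.6% in the fasted and 8.06% in the fed library. A share of the pool also depends on the counts of the other members. Of all gene counts, these 9 took 0.0959% in the fasted and 0.0998% in the fed library. Os9, which is among them, made up 5.71% of the pool in the fasted and 2.21% in the fed library. The 5 members with most fed footprints (Hsp90b1, Hspa5, Calr, Pdia3 and Canx) held 46.2% of the pool in the fasted and 61.8% in the fed library. The order of the members by level per kilobase was otherwise largely shared by the libraries (Spearman's rho 0.939 over the 42 genes), and a gene's mean level showed little relation to its ratio (rho -0.0685); both are descriptions over genes of the same 2 libraries.

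**Figure D4:**
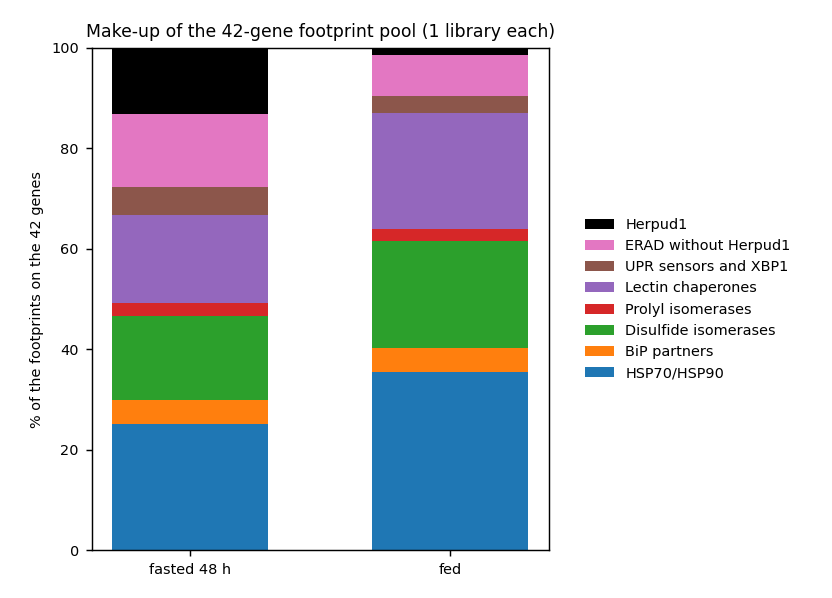
Share of the footprints on the 42 genes, in percent on the y axis, that fell on each role in the fasted and the fed library (1 library each), with Herpud1 drawn apart from the other ERAD genes. Herpud1 takes 13.1% of the fasted and 1.43% of the fed bar, and the folding roles together take 66.8% of the fasted and 87.0% of the fed bar.

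Other genes of the same pathways were taken from 6 lists. Beside the counts of these and later lists stand the shares over all measured genes. They were 17.3% lower and 17.2% higher, or 31.2% lower and 8.86% higher with plain CPM. Of 13 measured further ER oxidoreductases, 3 were lower, 3 higher and 7 neither (median log2 ratio -0.37; 6 lower and 1 higher with plain CPM). Agr2, the PDI relative of mucus-producing cells, was lower (850 footprints in the fasted and 5025 in the fed library; -2.21, -2.32 to -2.10), as were Prdx4, the ER peroxiredoxin (-1.07, -1.42 to -0.74), and Ero1l, the oxidase that recharges PDI (-0.61, -0.93 to -0.29). P4hb, PDI itself and also a subunit of the microsomal triglyceride transfer complex, went the other way, with 10739 footprints in the fasted and 8903 in the fed library (0.63, 0.58 to 0.67; 0.30 with plain CPM). Qsox1, a sulfhydryl oxidase (0.90, 0.79 to 1.003), and Agr3 (2.003, 0.80 to 3.54, on 23 fasted and 7 fed footprints) were also higher. P4hb and Agr2 lay on opposite sides although both belong to the PDI family.

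Further ERAD genes and p97 cofactors were mostly neither, as were the ERAD members: of 28 measured, 1 was lower, 5 higher and 22 neither (median 0.20; 3 lower and 1 higher with plain CPM). The 17.9% that were higher lay close to the 17.2% of all measured genes. The lower gene was Derl3, a derlin abundant in plasma cells (-2.08, -3.56 to -0.99, on 7 fasted and 40 fed footprints). The higher ones included Yod1, a deubiquitinase of p97 (1.94, 1.105 to 2.92), Ufd1l, a p97 adaptor (0.77, 0.52 to 1.023), and Herpud2, the paralogue of Herpud1, at a far smaller ratio than Herpud1 (0.64, 0.30 to 0.996; 0.32 with plain CPM). Of 5 measured glucosidases and other calnexin-cycle genes 1 was lower, Mogs, the glucosidase that trims the first glucose (-1.88, -2.26 to -1.54), and 4 were neither. Of 11 measured prolyl isomerases and cochaperones outside the members, 3 were lower, 2 higher and 6 neither (median -0.48; 9 lower and 1 higher with plain CPM). Lower were Fkbp9 (-1.09, -1.53 to -0.67), Dnajb2 (-0.89, -1.60 to -0.25) and Dnajb14 (-0.64, -1.22 to -0.094). Higher were Dnajb12, an HSP40 of the ER membrane (1.30, 1.09 to 1.52), and the torsin ATPase Tor1a (0.64, 0.35 to 0.94).

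The PERK branch gave few footprints. Of 7 measured genes, 2 were lower, 2 higher and 3 neither (median 0.14; 3 lower and 1 higher with plain CPM). Atf4, the factor whose translation PERK signalling favours, had 68 footprints in the fasted and 79 in the fed library (0.14, -0.35 to 0.62). Ddit3, the pro-apoptotic factor CHOP, had 6 in the fasted and 9 in the fed library and was below the minimum. Trib3, a pseudokinase induced by ATF4 and CHOP, was higher (1.37, 0.65 to 2.15). Ppp1r15a, the phosphatase subunit GADD34, was also higher, on 26 fasted and 14 fed footprints (1.23, 0.26 to 2.30). With plain CPM Ppp1r15a was 0.90 and neither. Atf3 was lower (-1.20, -1.86 to -0.60), as was the adaptor Nck1 (-1.11, -1.62 to -0.64). The processing enzymes and other factors of the ATF6 and IRE1 branches had 4 of 20 lower, 6 higher and 10 neither (median -0.082; 8 lower and 2 higher with plain CPM). Creb3l3, an ATF6-like membrane-bound factor of liver and intestine that controls lipid genes, had 4673 footprints in the fasted and 1622 in the fed library (1.88, 1.80 to 1.96), and Crebrf (1.26, 0.89 to 1.64) and Tmbim6, an ER membrane protein (0.70, 0.67 to 0.74), were also higher. Lower were Nfya (-1.14, -1.65 to -0.67), Stc2 (-1.21, -2.02 to -0.50) and Map3k5 (-0.93, -1.39 to -0.49). Nfya is a subunit of NF-Y, whose other subunits on the list did not share its call. Nfyc was higher (0.64, 0.016 to 1.29), but 0.32 and neither with plain CPM. Nfyb was neither (-0.27, -0.71 to 0.16), but -0.59 and lower with plain CPM.

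Markers of several cell types differed between the libraries in the same direction as the folding members. Of 14 plasma cell markers 10 were lower, 0 higher and 4 neither, and their sum took 0.904% of gene counts in the fasted and 1.91% in the fed library; Fkbp11 and Txndc5 are on that list too. Without these members and the immunoglobulin constant genes, 6 of 9 were lower and 0 higher (0.0443% of gene counts in the fasted and 0.103% in the fed library). Goblet cell markers had 8 of 14 lower and 0 higher (3.52% of gene counts in the fasted and 5.71% in the fed library), with Muc2, the gel-forming mucin, at -1.26. The list was not uniform: 4 of the 14 had ratios above 1, among them the mucus protein Fcgbp, which had the most footprints of the list (0.15, 0.14 to 0.17). With plain CPM 9 of the 14 were lower and 0 higher. Fcgbp (-0.17), Bcas1 (-0.19) and Sytl2 (-0.28) then fell below 1, and Zg16 (0.20) stayed above it. Fibroblast markers had 6 of 10 lower and 2 higher (8 lower and 0 higher with plain CPM; 0.211% in the fasted and 0.620% in the fed library), and smooth muscle markers 7 of 10 lower and 0 higher (0.252% in the fasted and 0.579% in the fed library). Enterocyte markers went the opposite way, with 12 of 14 higher and 0 lower (12.1% in the fasted and 6.21% in the fed library), and of 13 measured Paneth cell markers 7 were higher and 1 lower (1.59% in the fasted and 1.65% in the fed library; 2 higher and 1 lower with plain CPM). Of the genes on these lists only the defensin Defa17 was at 0 in both libraries. The part of cell type make-up in the members' ratios was not tested.

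**Figure D5:**
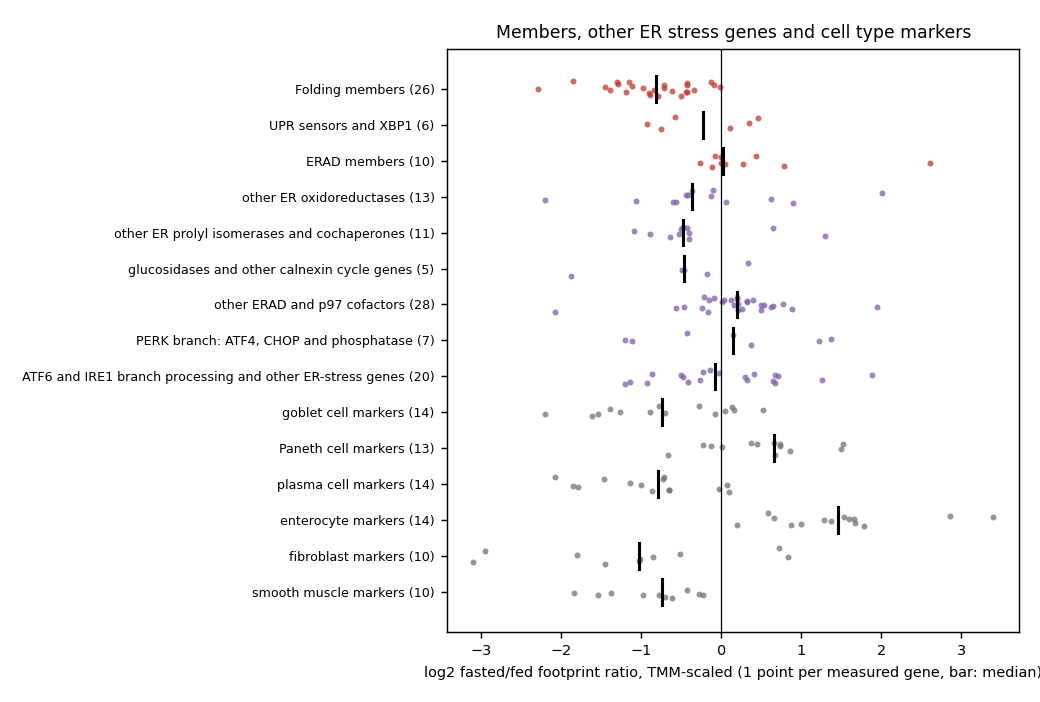
Log2 fasted/fed footprint ratio (x axis, TMM-scaled) of each measured gene in the member groups (red), the other lists of ER stress genes (purple) and the cell type marker lists (grey), with the number of measured genes in brackets and a bar at each median; lists with under 5 measured genes are left out. The folding members centre on -0.82, plasma and goblet cell markers on -0.80 and -0.75, and enterocyte markers on 1.45.

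Reads with several alignments, and reads that overlap several genes, are tallied apart from genes in the deposited tables. Over 10% of coding 28-mers were shared with other annotated transcripts in 8 members: Vcp, Ppib (53.0%), Dnajb9 (47.1%), Derl1 (42.6%), Hsp90b1, Erp29, Eif2ak3 and Manf. For Dnajb9 and Derl1 the shared 28-mers lie in a gene that does not overlap them, and for Hsp90b1, Erp29, Eif2ak3 and Manf they lie in genes annotated over the same locus. For Vcp and Ppib they lie in both kinds of gene. Of the 8, all but Dnajb9 and Derl1 overlap a gene on the other strand, and the levels of all 8 are uncertain. Without these 8 members, an alternative chosen after the values were seen, 15 of 21 folding members were lower and 0 of 8 ERAD members.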

How the data were processed

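Ribosome footprints of mouse ileum were counted in 1 fasted and 1 fed library. The values are raw counts per gene symbol as deposited by the authors. The submitters' processing notes name cutadapt, Bowtie 1.1.2, STAR, HTSeq and mm10, without saying what each did; the sources used here name no gene annotation, strand setting or footprint length. NA was read as 0, and unassigned-read totals were left out of library sizes (assigned: 38.9% of reads in the fasted, 45.0% in the fed file).

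TMM factors came from edgeR 4.0.16 (R 4.3.3), used for scaling only, and alternative size factors from DESeq2 1.42.0. Log2 ratios have 0.5 added to each count. Coding lengths and coordinates are from GENCODE vM21 (longest principal transcript), promoters from RefSeq. Libraries were also simulated from the pooled counts with counting noise alone (fasted against fed, 11327 genes, 200 changed). In them, 95.6% of intervals covered the true ratio and 1.35% of unchanged genes were called. Of 1.5-, 2-, 3- and 4-fold changes, 48%, 92%, 100% and 100% were recovered. The simulation holds no variation between animals or library preparations. These shares are therefore not error rates of the real libraries.

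The members and lists were chosen with earlier results of these data known. All members are named. Of the other pathway lists, up to 3 called genes per direction are named, by the interval bound nearest to 1, with P4hb, Atf4 and Ddit3. Fabp6, Slc10a2, Fgf15, Nfyb, Nfyc, Fcgbp, Bcas1, Sytl2, Zg16 and the genes of the closing lists were chosen after their values were seen. Intervals treat reads as independent molecules, although they had been PCR amplified. A further marker list is not reported here.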

Additional observations from a re-analysis of the deposited data

Results flagged for a closer look

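Reads that overlapped no counted feature, which enter no ratio here, took 21.0% of all reads tallied in the fasted file (exact Clopper-Pearson limits 20.96% to 21.00%) and 13.4% of those in the fed file (13.36% to 13.40%). They are given because they lie outside the gene counts and their share was larger in the fasted library. The sources used here do not say which features were counted.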

How the results depend on the processing

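The count of lower members was 19 as reported and 18 to 26 over plain CPM, median-ratio factors, upper-quartile factors, TMM without the 20 most abundant genes, no minimum, a minimum of 200 counts and a wider interval. The 26 came with plain CPM, where 31.2% of all measured genes were lower, against 17.3% with TMM. With a 2-fold threshold 9 members were lower (9.14% of all measured genes), all 9 of them folding members, and 1 was higher (8.25%). With plain CPM 1 member was higher (8.86% of all measured genes) and the members' median log2 ratio was -0.80. No ERAD member was lower under any of these settings or with the members left out that share coding 28-mers or are plasma cell markers. Derl2 fell just short of 1.5-fold with plain CPM (-0.58). Under plain CPM the 19 lower members stayed lower, 7 more were lower, Os9 was no longer higher, and Edem3, Eif2ak3 and Vcp changed sign; Vcp also changed sign under TMM without the 20 most abundant genes. Under upper-quartile factors and under TMM without the 20 most abundant genes, Atf6b alone changed its call, to lower. Under the median-ratio factors all 42 members kept their call. No paired analysis was possible because each condition has 1 library, and for the same reason no library could be left out. Depth leaves wide intervals for members with few footprints, such as Fkbp11 and Creld2.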

Other observations

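Neighbouring groups differed in how far they went with the folding members; these 3 lists were chosen after results of these data were known, and the differences between lists were not tested. Of 23 measured cytosolic chaperones 10 were lower, 2 higher and 11 neither in the fasted library, at a median log2 ratio of -0.46 (15 lower and 1 higher with plain CPM). These values were close to those of all 42 members: 43.5% of the cytosolic list and 45.2% of the members were lower, and the members' median was -0.48. Hsp90ab1, the constitutive cytosolic HSP90, had 1944 footprints in the fasted and 8033 in the fed library (-1.69, -1.76 to -1.62), Hsph1, an HSP70 exchange factor, had 104 in the fasted and 1000 in the fed library (-2.90, -3.22 to -2.62), and Hspb8, a small heat shock protein of selective autophagy, was higher with 199 in the fasted and 51 in the fed library (2.31, 1.87 to 2.79).

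Of 29 measured genes of ER translocation and N-glycosylation 8 were lower, 0 higher and 21 neither (median -0.37; 19 lower with plain CPM), among them Rpn1, a subunit of the oligosaccharyltransferase (-0.64, -0.74 to -0.54), and the signal peptidase subunit Spcs3 (-0.87, -1.13 to -0.61). Of 19 genes of the COPI and COPII coats and KDEL receptors 0 were lower, 2 higher and 17 neither (median 0.15; 2 lower and 2 higher with plain CPM). The higher ones were Sar1b, the COPII GTPase needed for chylomicron export, with 1421 footprints in the fasted and 709 in the fed library (1.36, 1.23 to 1.49), and Sec24d, a COPII cargo adaptor (1.13, 1.03 to 1.23).

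Outside the members, 6 measured genes held ERSE-II: 3 were lower, 1 higher and 2 neither. Krtcap2, an oligosaccharyltransferase component (-1.002, -1.27 to -0.74), Lrif1 (-0.89, -1.47 to -0.36) and Lgalsl (-0.62, -1.17 to -0.11) were lower. Nucb1, a Golgi calcium-binding protein, was higher (3147 footprints in the fasted and 2503 in the fed library; 0.69, 0.61 to 0.76), and Rbm39 and Rcl1 were neither.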
